A study of Mus musculus with 12 samples.

Results

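The comparison asked, gene by gene, whether loss of the lamin B receptor changed RNA levels differently in mouse striated muscle and in myoblasts, the proliferating precursors of muscle fibres. For each gene the change in muscle, Lbr knockout minus wild type, was calculated on the scale log2(FPKM + 1), and the same change in myoblasts was subtracted from it. FPKM are sequenced fragments of a gene, divided by transcript length and by library size. A gene entered with at least 1 FPKM in both wild-type columns and a value above 0 in all 4 columns, which 10096 of 22552 genes did. Of the others, 7442 were listed at 0 in at least 1 of the 4 columns, 2678 were under 1 FPKM in both wild types, 1301 only in wild-type myoblasts and 1035 only in wild-type muscle. The filter used the wild types, apart from the values of 0, so a gene did not enter for being high in a knockout.

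All mice were C57Bl/6, and homozygous knockouts and wild types came from matings of heterozygous animals. The series holds myoblasts and striated muscle of mice lacking Lbr or Lmna, the gene of lamins A and C, and of wild types, with 12 samples in all. The contrast uses 7 of them: 2 Lbr knockout and 1 wild-type myoblast samples of the Lbr litter, and 2 Lbr knockout and 2 wild-type muscle samples. A second wild-type myoblast sample came from the Lmna litter and is called the other wild type here. The table holds a single column per group, so the 2 samples behind a knockout column or the muscle wild-type column cannot be separated and no value below has a replicate error. The labels give neither age, sex, the muscle sampled nor the deleted part of Lbr, and the muscle wild-type column is not tied to an Lbr litter. Different library kits were used for myoblasts and for muscle, so kit and tissue cannot be told apart, although each change was taken within a tissue.

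The lamin B receptor is a protein of the inner nuclear membrane that binds lamin B and heterochromatin protein 1 and tethers silent chromatin to the nuclear edge. Its membrane domain is also a sterol C14 reductase, an activity shared with Tm7sf2 in cholesterol synthesis. During muscle differentiation myoblasts leave the cell cycle, fuse, and switch on the contractile proteins of the sarcomere.

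In what follows a gene rose or fell where its change was 2-fold or more, a log2 value of at least 1 in size, which takes the place of a test. A difference of effects called 2-fold lower means that the change in muscle lay at least 1 log2 unit under the change in myoblasts, and 2-fold higher the reverse. The scale understates changes of genes near 1 FPKM. An FPKM of 1 in a 2 kb transcript was estimated to stand for about 32.4 fragments in either wild-type myoblast column and 23.5 in Lbr knockout myoblasts, but for 8.15 in wild-type and 6.18 in Lbr knockout muscle. The muscle values of low genes are therefore the less precise ones.

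Lbr itself was lower in both knockouts. It was listed at 11.8 FPKM in wild-type muscle and 1.87 in knockout muscle, and at 16.1 in own-litter wild-type, 14.7 in other wild-type and 7.71 in knockout myoblasts. Thus Lbr fell by 2.16 log2 units in muscle, while the myoblast change was -0.97, just short of 2-fold, and the difference of effects was -1.19. The remaining Lbr signal was larger in the knockout myoblasts than in the knockout muscle, and the files do not show which exons it covers. The tissue labels were matched by markers: Acta1, skeletal alpha actin, stood at 17215 FPKM in wild-type muscle and 25.5 in own-litter wild-type myoblasts, and none of the 53 sarcomere genes was at 0 in muscle.

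Lbr loss moved different numbers of genes in the 2 tissues. In myoblasts 158 of the 10096 genes rose and 11 fell against their own litter, 1.56% and 0.109% of genes. In muscle 40 rose and 12 fell, 0.396% and 0.119%. The difference of effects passed 2-fold for 215 genes, 2.13%, with 159 lower (1.57%) and 56 higher (0.555%). Over all genes its median was 0.04, with a quartile range of -0.17 to 0.23. In 129 of the 159 lower genes the myoblast change was the larger in size. Of the 159, 99 had a 2-fold myoblast change with a smaller muscle change, 11 a 2-fold muscle change, 1 both and 48 neither. Among the 56 higher genes, 10 had a 2-fold myoblast change, 16 a 2-fold muscle change and 30 neither.

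The wild type chosen for the myoblasts changed this balance. Against the other wild type 177 genes were 2-fold higher, 1.75%, and 175 lower, 1.73%, so that lower genes made up 49.7% of those called in place of 74.0%. The wild-type myoblast columns themselves differed 2-fold at 202 genes, 2.0%. Of the 159 lower genes, 57 (35.8%, and 0.565% of all genes) were 2-fold lower against either wild type and 26 (16.4%) had the opposite sign against the other. Of the 56 higher genes, 38 (67.9%, and 0.376% of all genes) were 2-fold higher against either and 2 had the opposite sign. Where a gene or list has a second value in parentheses below, the first is against the own litter and the second against the other wild type.

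Across the 10096 genes the change in muscle and the change in myoblasts, which share no column, had a Pearson correlation of 0.09 and a Spearman correlation of 0.03. Against the other wild type they were -0.03 and -0.05. These values describe genes, which are not independent replicates. The scatter of myoblast against muscle changes shows a round cloud with groups of genes on its right side.

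**Figure D1:**
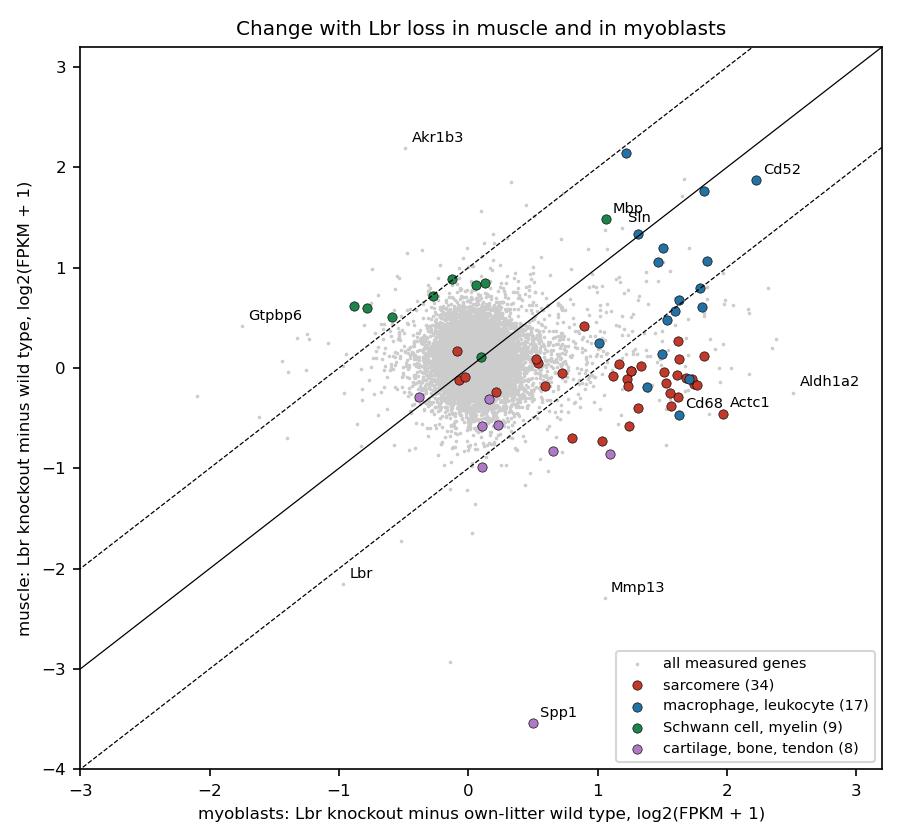
Change with Lbr loss in myoblasts (x axis, own-litter wild type) and in muscle (y axis), both in log2(FPKM + 1), for 10096 genes (grey) with members of 4 gene lists coloured. The solid line marks equal change and the dashed lines a difference of 1. Most sarcomere genes lie right of the lower dashed line near a muscle change of 0, macrophage genes lie to the right with mixed muscle changes, and Mmp13 and Spp1 lie far below.

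Genes of the contractile apparatus formed the largest group of lower differences among the lists examined. Of 53 sarcomere genes listed, 34 were measured, 18 being under 1 FPKM in wild-type myoblasts and Tpm1, a tropomyosin, being listed at 0 in knockout myoblasts, which at its level can be a failed estimate and is not read as a fall. The difference of effects was 2-fold lower in 25 of the 34, beside 1.57% of all genes, and 2-fold higher in 0, with a median of -1.46 beside 0.04 over all genes. In myoblasts 24 of the 34 rose, beside 1.56% of all genes, and 0 fell, with a median change of 1.26, whereas in muscle 0 rose and 0 fell, with a median of -0.11. Against the other wild type 12 of the 34 were 2-fold lower, beside 1.73% of all genes, the median difference was -0.89 and the myoblast median 0.70. All 12 were among the 25.

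Among thin-filament genes, Actc1, the cardiac alpha actin of immature muscle, had the largest difference. It was at 36.7 FPKM in own-litter wild-type, 78.0 in other wild-type and 147 in knockout myoblasts, and at 6501 in wild-type and 4741 in knockout muscle. The knockout myoblasts were the highest of the 3 myoblast columns, and the difference was -2.43 (-1.36 against the other wild type). Tnnt3, the fast troponin T that anchors troponin to tropomyosin, was at 13.2, 20.8 and 46.0 FPKM in the same order in myoblasts and at 12867 and 11948 in muscle, a difference of -1.83 (-1.21). Troponin I of slow fibres, Tnni1, differed by -1.95 (-0.93) and troponin C of fast fibres, Tnnc2, by -1.79 (-0.93), so that both passed 2-fold against their own litter and not against the other.

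Thick-filament and Z-disc genes followed. Myh3, the embryonic myosin heavy chain, was at 7.67, 10.4 and 25.6 FPKM in own-litter wild-type, other wild-type and knockout myoblasts, and at 29.8 and 24.1 in wild-type and knockout muscle, a difference of -1.91 (-1.52). Mylpf, a fast regulatory light chain, was at 57.5, 119 and 196 FPKM in myoblasts and 8910 and 7984 in muscle, a difference of -1.91 (-0.87). Des, encoding desmin, the intermediate filament that links myofibrils, was at 23.3, 32.9 and 85.2 FPKM in myoblasts and 731 and 792 in muscle, a difference of -1.71 (-1.23). In all 3 of these genes the knockout myoblasts exceeded both wild-type columns, while the muscle columns differed by less than 2-fold. Lmod2 and Lmod3, leiomodins that nucleate thin filaments, differed by -1.83 (-1.44) and -1.72 (-1.36).

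A few sarcomere genes had differences near 0. Tpm2, a tropomyosin at 486 FPKM in own-litter wild-type myoblasts, differed by -0.05 (0.49 against the other wild type), and Capzb, the actin capping protein, by -0.07 (0.16). Myom1, an M-band protein, had the only positive difference among the 34 against their own litter, 0.25 (0.74). The plot of sarcomere differences shows both wild types for each gene.

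**Figure D2:**
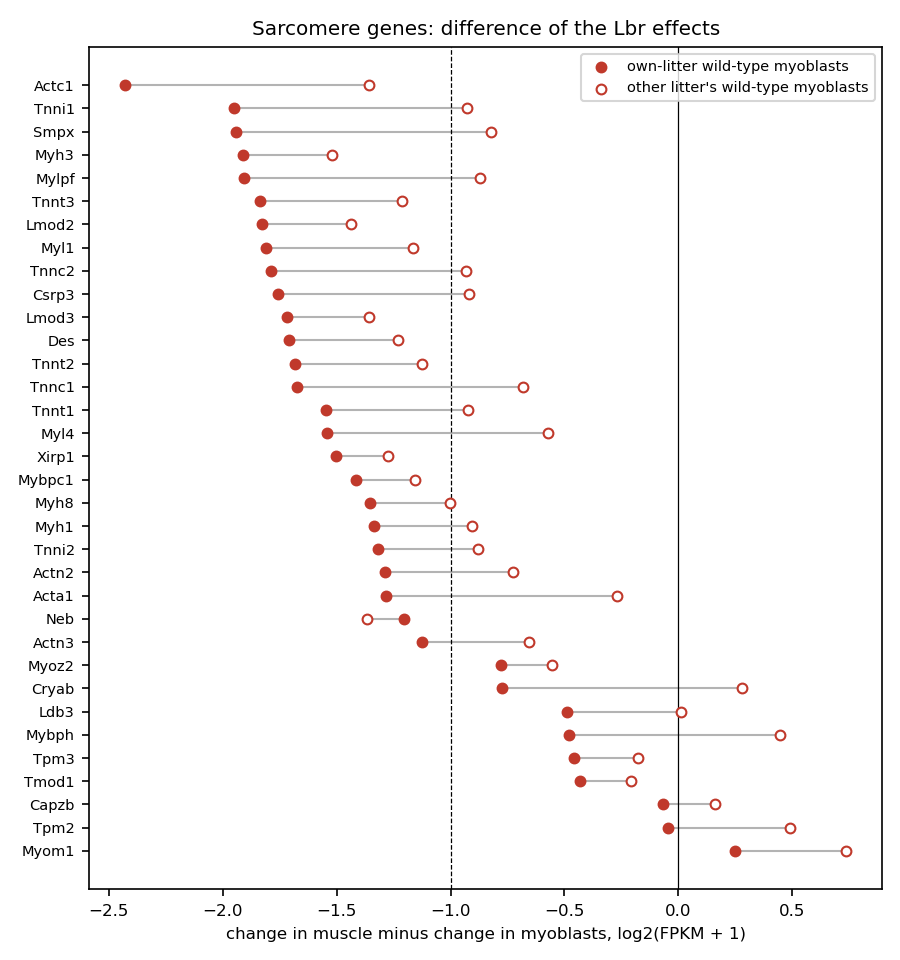
Difference of the Lbr effects, muscle minus myoblast, in log2(FPKM + 1) (x axis) for the 34 measured sarcomere genes, with own-litter (filled) and other (open) wild-type myoblasts. The dashed line marks 2-fold lower. With their own litter 25 genes lie at or left of it, and with the other wild type 12.

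Regulators of differentiation and excitation-contraction genes moved the same way in myoblasts. Of 27 regulators and fusion genes 18 were measured, and 8 were 2-fold lower, beside 1.57% of all genes, and 0 higher in the difference. Against the other wild type 2 were lower, Mef2c and Mb, beside 1.73% of all genes, and only Mb with either. The median difference was -0.90 (-0.49), and -0.38 with a minimum of 5 FPKM. In myoblasts 9 rose, beside 1.56% of all genes, and Mef2c alone against the other wild type, while in muscle 0 rose and 0 fell. Myog, encoding myogenin, the factor that drives terminal differentiation, was at 2.94, 7.47 and 10.5 FPKM in own-litter wild-type, other wild-type and knockout myoblasts and at 42.9 and 48.6 in muscle, a difference of -1.37 (-0.26). Tmem8c, the fusion protein myomaker, was at 12.8, 23.1 and 43.0 FPKM in myoblasts and 16.4 and 16.5 in muscle, a difference of -1.66 (-0.85). Mb, encoding the oxygen store myoglobin, was at 8.89, 19.2 and 27.5 FPKM in myoblasts and 481 and 282 in muscle, a difference of -2.30 (-1.26). Of these 3 genes, Mb alone stayed past 2-fold against the other wild type.

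Of 16 excitation-contraction genes 10 were measured and 4 were 2-fold lower, beside 1.57% of all genes, and 0 against the other wild type. In myoblasts 5 rose, beside 1.56% of all genes, and Sln alone against the other wild type. Cacng1, a calcium channel subunit, differed by -1.39 (-0.34), Casq1, the calcium store protein calsequestrin, by -1.31 (-0.72) and Srl, sarcalumenin, by -1.13 (-0.68). Atp2a1, the calcium pump of fast fibres, differed by -1.26 (-0.76). Sln, encoding sarcolipin, which inhibits that pump, was the exception, since it rose in both tissues, from 98.9 to 261 FPKM in muscle and from 1.03 to 3.62 in myoblasts. Its difference was 0.20 (0.33). By contrast 0 of 17 muscle progenitor and Notch genes passed 2-fold, and their median difference was 0.03. In the 3 muscle lists together 37 genes were 2-fold lower and 0 higher, 37 of the 159 lower genes. Of these 37, 13 stayed so with either wild type, a share close to the 57 of all 159 lower genes (35.8%).

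The MyoD family of muscle regulators binds the hexamer CAGCTG, so the promoters of these genes were searched for it. RefSeq promoter windows on GRCm38.p6, 250 bases before to 50 after the gene start, were matched for 27 of the 37 lower muscle genes, and 13 of the 27, 48.1%, held CAGCTG in at least 1 window. The hexamer is its own reverse complement, so both strands were read at once. It was present for 36.8% of the 19 matched muscle-list genes that were not lower, 17.3% of the 8097 matched measured genes and 18.3% of all 27025 genes with a promoter. A match is a description of letters and not a bound site. The 250 bases before the start are shown, 5' to 3' on the gene's strand with CAGCTG in capitals, for 4 lower genes that have a match and a single promoter window: Mylpf at chr7:127211358-127211607 on the plus strand, Myl1, a fast essential light chain, at chr1:66945057-66945306 on the minus strand, Des at chr1:75360042-75360291 on the plus strand, and Mybpc1, a myosin binding protein, at chr10:88605153-88605402 on the minus strand.
Mylpf: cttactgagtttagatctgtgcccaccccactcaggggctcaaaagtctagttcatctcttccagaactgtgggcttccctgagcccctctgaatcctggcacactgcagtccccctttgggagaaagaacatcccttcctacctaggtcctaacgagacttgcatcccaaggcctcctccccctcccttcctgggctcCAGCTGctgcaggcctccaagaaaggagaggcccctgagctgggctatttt
Myl1: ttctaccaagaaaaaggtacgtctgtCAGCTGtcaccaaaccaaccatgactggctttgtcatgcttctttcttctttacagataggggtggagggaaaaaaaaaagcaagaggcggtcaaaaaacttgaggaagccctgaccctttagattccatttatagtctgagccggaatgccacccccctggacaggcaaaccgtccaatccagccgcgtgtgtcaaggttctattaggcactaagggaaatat
Des: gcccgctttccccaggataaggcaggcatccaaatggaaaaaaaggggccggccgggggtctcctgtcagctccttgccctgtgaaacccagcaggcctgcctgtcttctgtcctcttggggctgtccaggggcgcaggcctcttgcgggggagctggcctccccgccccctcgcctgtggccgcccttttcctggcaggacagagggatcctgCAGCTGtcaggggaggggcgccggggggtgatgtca
Mybpc1: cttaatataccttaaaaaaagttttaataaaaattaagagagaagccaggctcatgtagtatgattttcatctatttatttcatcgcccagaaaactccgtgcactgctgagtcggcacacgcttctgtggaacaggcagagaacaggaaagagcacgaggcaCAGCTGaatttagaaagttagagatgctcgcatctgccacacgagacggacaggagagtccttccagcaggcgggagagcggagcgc
The hexamer starts 51 bases before the gene start in Mylpf, 224 in Myl1, 36 in Des and 87 in Mybpc1. Myl1 differed by -1.81 (-1.17) and Mybpc1 by -1.42 (-1.16), beside the values of Mylpf and Des above.

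The share of genes with a lower difference was highest among those that muscle expresses far above myoblasts. The preference was taken from Lmna knockout muscle and other wild-type myoblasts, neither of which enters the own-litter contrast. Of 109 genes at least 4 log2 units higher in muscle, 30 were 2-fold lower, 27.5%, with a median difference of -0.33. Their median change was 0.46 in myoblasts and 0.08 in muscle. Of the 5204 genes between 0 and 2 log2 units higher in myoblasts, 43 were 2-fold lower, 0.826%. Of the 131 genes more than 4 log2 units higher in myoblasts, 3.82% were. The bars of genes past 2-fold by tissue preference are tallest at the muscle end, and this group overlaps with the sarcomere list.

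**Figure D3:**
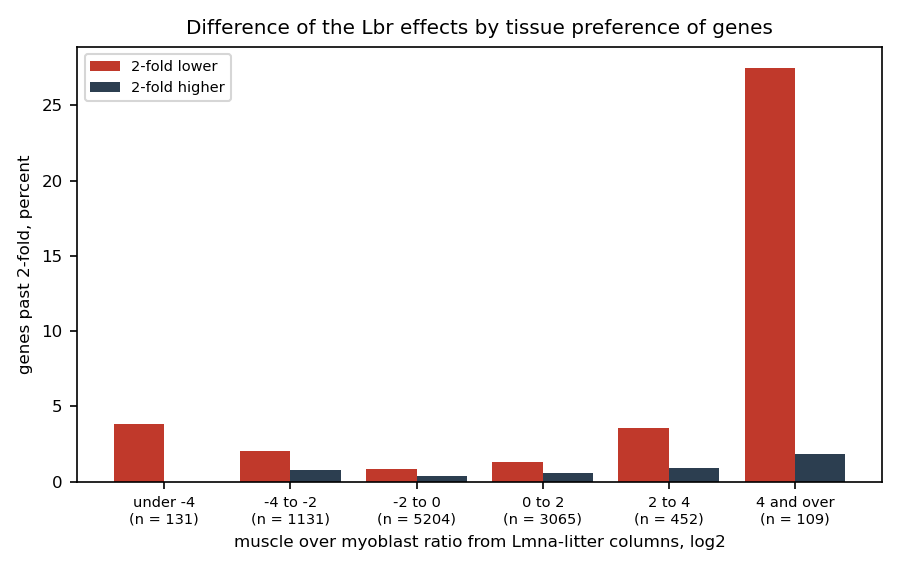
Percent of genes 2-fold lower (red) and 2-fold higher (dark) in the difference of effects (y axis) by log2 ratio of muscle to myoblast expression (x axis), with the number of genes per bin. The lower share reaches 27.5% in the 109 genes at 4 and over.

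Lower shares also depended on level. With the lower wild-type value between 1 and 2 FPKM, 1.45% of 1720 genes were 2-fold higher and 2.44% lower, and at 20 FPKM and over 0.0686% of 1457 genes were higher and 1.24% lower. Higher differences were thus mostly found among weakly expressed genes.

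Macrophage and pan-leukocyte genes rose in myoblasts and part of them in muscle, and their difference rested on the wild type chosen. In bulk samples fewer cells of a type and less RNA per cell cannot be told apart, which holds for every marker list here. Of 24 listed genes 23 were in the table and 17 were measured. In myoblasts 17 of the 17 rose against their own litter, beside 1.56% of all genes. In muscle 7 rose, beside 0.396%, and 0 fell. In the difference 7 were 2-fold lower, beside 1.57%, and 0 higher. Against the other wild type 1 of the 17 rose in myoblasts, beside 1.32% of all genes. The difference was then 2-fold higher in 4 and lower in 1, beside 1.75% and 1.73%. The medians were 1.60 in myoblasts, 0.68 in muscle and -0.95 for the difference, and against the other wild type they were -0.03 for myoblasts and 0.65 for the difference, so the sign of the difference turned. Summed over the 23 genes the FPKM were 473 in own-litter wild-type, 1705 in other wild-type and 1445 in knockout myoblasts, and 157 in wild-type and 305 in knockout muscle, with 0 markers at 0 in any of these columns. All 23 were higher in knockout than in own-litter wild-type myoblasts, 9 of 23 than in the other wild type, and 19 of 23 were higher in knockout muscle. The own-litter wild type was thus the low myoblast column. In Lmna knockout muscle the sum was 254 FPKM. The part of leukocyte content in these results was not tested.

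Cd68, a lysosomal protein of macrophages, was at 10.5, 37.5 and 34.5 FPKM in own-litter wild-type, other wild-type and knockout myoblasts, and at 5.65 and 3.81 in wild-type and knockout muscle, a difference of -2.10 (-0.35). Mrc1, the mannose receptor, was at 2.98, 5.70 and 11.9 FPKM in myoblasts and 9.60 and 8.85 in muscle, a difference of -1.81 (-1.06). It was the only member of the list 2-fold lower against either wild type. Csf1r, the receptor for macrophage colony stimulating factor, differed by -1.20 (0.62), and Lyz2, lysozyme, by -1.05 (0.78), both with a change of sign. Ptprc, encoding the pan-leukocyte protein CD45, was at 2.10, 3.72 and 6.71 FPKM in myoblasts and 1.27 and 4.71 in muscle, so that it rose in both and differed by 0.02 (0.62).

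In all 15 genes rose in both tissues, 0.149% of the genes measured. They make up 37.5% of the genes that rose in muscle and 9.49% of those that rose in myoblasts. They were Cd52, Cd53, Cd74, Coro1a, Csf2rb, Ctss, Cyth4, Laptm5, Pld4, Ptprc, Rac2, Selplg, the myelin gene Mbp, Sln and the pseudogene Atp6v0c-ps2. Against the other wild type the rise in myoblasts passed 2-fold for 2 of the 15, Sln and Atp6v0c-ps2, where 1.32% of all genes rose. All 15 were also higher in Lmna knockout than in wild-type muscle, by 0.17 log2 units for Cyth4 up to 2.96 for Atp6v0c-ps2. The wild-type column was thus the lowest muscle column for each. The part of Lbr loss in these muscle rises was not tested. No gene fell in both tissues or rose in muscle and fell in myoblasts.

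The complement list, which opsonizes and clears debris, was split in the same manner. Of 18 listed genes 11 were measured, with 6 2-fold lower and 1 higher, beside 1.57% and 0.555% of all genes. With the other wild type 0 were lower and 2 higher, beside 1.73% and 1.75% of all genes. These 2 were C5ar1, the receptor of a complement fragment, and Cd59a. The median difference was -1.04, and 0.52 against the other wild type. It was -0.48 with a pseudocount of 5, -0.49 without a filter, -0.56 with a mean of at least 1 FPKM and -0.45 with the mean of both wild types. C1qa, a chain of the initiating complex, was at 1.47, 14.3 and 11.8 FPKM in own-litter wild-type, other wild-type and knockout myoblasts and at 16.7 and 20.6 in muscle, a difference of -2.09 (0.54). The higher member was Cd59a, a membrane inhibitor of complement lysis. It was at 39.4, 60.1 and 16.0 FPKM in myoblasts and 29.3 and 37.2 in muscle, a difference of 1.59 (2.18), and the knockout myoblasts were the lowest column.

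B and T lymphocyte markers were almost all under the limit in myoblasts, and of the 21 listed 19 were in the table and 2 were measured. Their summed FPKM went from 37.8 in wild-type to 96.3 in Lbr knockout muscle, higher for 17 of 19 genes, and was 65.9 in Lmna knockout muscle. In myoblasts the sum was 276 in own-litter wild-type, 311 in other wild-type and 256 in knockout cells, and most of it came from Thy1, which fibroblasts also express. Of the 19 genes, 8 were at 0 in own-litter wild-type, 8 in other wild-type and 5 in knockout myoblasts, and Blk, Cd3g, Cd2, Cd8a and Ltb were at 0 in all 3 columns. Of 15 measured interferon and antigen presentation genes 0 passed 2-fold in the difference. Against the other wild type 2 were higher, beside 1.75% of all genes. In muscle 2 of the 15 rose, beside 0.396%.

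Schwann cell and myelin genes showed the opposite direction. Of 20 listed 9 were measured, 4 of them 2-fold higher, beside 0.555% of all genes, and 0 lower, with a median difference of 0.99 (1.08), a median of 0.72 in muscle and of -0.13 in myoblasts. The sum over the 20 was 509 FPKM in wild-type and 1052 in Lbr knockout muscle, with all 20 higher in the Lbr knockout. In Lmna knockout muscle the sum was 664 FPKM, so the wild-type sum was the lowest of the muscle columns. In myoblasts it was 293 in own-litter wild-type, 348 in other wild-type and 279 in knockout cells, with 8 of 20 higher in the knockout. Whether nerve content differed between the muscle samples was not tested.

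Sox10, the factor that specifies Schwann cells, was at 10.9, 7.85 and 5.46 FPKM in own-litter wild-type, other wild-type and knockout myoblasts and at 2.38 and 4.2 in wild-type and knockout muscle, a difference of 1.50 (1.08). Ngfr, a neurotrophin receptor, was at 38.8, 31.5 and 22.1 FPKM in myoblasts and 1.41 and 2.65 in muscle, a difference of 1.38 (1.09). In both genes the knockout was the lowest myoblast column and the higher muscle column, and neither change alone reached 2-fold. Gldn, gliomedin of the node of Ranvier, differed by 1.11 (1.25), and Prx, periaxin of myelin, by 1.01 (1.18). With a pseudocount of 5 the list median was 0.59 and these 4 genes were under 2-fold, between 0.56 and 0.95. Mbp rose in both tissues, from 73.4 to 207 FPKM in muscle and from 1.38 to 3.97 in myoblasts, with 2.72 in the other wild type, and differed by 0.42 (1.06).

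Most cartilage, bone and tendon genes had lower values in knockout than in wild-type muscle. Of 21 listed 8 were measured, with 4 2-fold lower and 0 higher, beside 1.57% and 0.555% of all genes. The median difference was -0.95 (-1.04), with a muscle median of -0.70 and a myoblast median of 0.19. Summed FPKM were 291 in wild-type and 150 in knockout muscle, beside 432 in Lmna knockout muscle, and 2 of 21 genes were higher in the Lbr knockout. In the wild-type and Lbr knockout muscle columns respectively Bglap, osteocalcin of bone, was at 21.3 and 1.90 FPKM and Ibsp, bone sialoprotein, at 11.3 and 0.157, both near 0 in myoblasts and outside the comparison. Whether bone or tendon was sampled along with muscle was not tested.

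Spp1, encoding osteopontin, a matrix protein of bone and of activated macrophages, had the largest difference of all genes. It was at 24.9 FPKM in wild-type, 1.22 in Lbr knockout and 65.0 in Lmna knockout muscle, and at 488 in own-litter wild-type, 325 in other wild-type and 693 in Lbr knockout myoblasts. It fell by 3.54 log2 units in muscle, its myoblast change was 0.50, and the difference was -4.05 (-4.64). Mmp13, the collagenase of cartilage and bone remodelling, was at 5.36 FPKM in wild-type and 0.293 in knockout muscle and at 4.09, 4.18 and 9.59 in myoblasts. It was the only gene that fell in one tissue and rose in the other, 0.00990% of genes, with changes of -2.30 and 1.06 and a difference of -3.35 (-3.33). Col2a1, the collagen of cartilage, differed by -1.96 (-1.30) and Tnmd, tenomodulin of tendon, by -1.09 (-1.70). Spp1, Mmp13, Col2a1 and Tnmd kept the 2-fold difference with either wild type. Of the 4 lower genes of the cartilage, bone and tendon list, 3 did so. The fourth, Scx, differed by -1.49 (-0.51).

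In Aldh1a2, Sirt3, Ascc1, Yipf2 and Cck the myoblast change was the larger in size. Aldh1a2, which makes retinoic acid, was at 4.11, 6.09 and 28.2 FPKM in own-litter wild-type, other wild-type and knockout myoblasts and at 2.04 and 1.56 in muscle, a difference of -2.76 (-2.29). Sirt3, a mitochondrial deacetylase, was at 2.07, 1.88 and 12.8 FPKM in myoblasts and 5.81 and 5.51 in muscle, a difference of -2.23 (-2.33). Sirt3 was listed at 0 in Lmna knockout myoblasts, which are outside this contrast, and a listed 0 can be a failed estimate. Ascc1 and Yipf2 differed by -2.32 (-1.71) and -2.16 (-1.61). The gut peptide gene Cck was at 17.4, 66.9 and 70.1 FPKM in myoblasts and 1.61 and 1.37 in muscle, so its difference of -2.09 became -0.21 with the other wild type. Hist1h2ap, a histone H2A gene with near-identical copies whose reads may be shared, was listed at 6.63 FPKM in wild-type and 0.000825 in knockout muscle, with a myoblast change of -0.14. Its difference of -2.79 (-2.43) thus came from the muscle columns and is uncertain.

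Of the imprinted growth genes, 17 of 22 were measured, with a median difference of -0.10 (-0.50). In the difference 3 were 2-fold lower and 1 higher, beside 1.57% and 0.555% of all genes. Against the other wild type 4 were lower and 1 higher, beside 1.73% and 1.75% of all genes, and 2 were lower with either. H19 and Igf2, neighbours under a common imprinting control, rose in myoblasts. H19 was at 54.3, 49.7 and 155 FPKM in own-litter wild-type, other wild-type and knockout myoblasts and at 2676 and 3452 in muscle, a difference of -1.13 (-1.26). Igf2, a growth factor, was at 72.8, 63.1 and 171 FPKM in myoblasts and 396 and 437 in muscle, a difference of -1.08 (-1.28). The knockout myoblasts exceeded both wild types in each. The third gene lower against the own litter, Cdkn1c, a cell-cycle inhibitor, differed by -1.58 (-0.50). Nnat, neuronatin, rose in muscle from 31.7 to 109 FPKM and differed by 1.01 (1.46).

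Of the genes with higher differences, Akr1b3, aldose reductase, stood first. It was at 2.31 FPKM in wild-type, 14.1 in Lbr knockout and 7.06 in Lmna knockout muscle. In own-litter wild-type, other wild-type and Lbr knockout myoblasts it was at 6.61, 10.1 and 4.43, a difference of 2.68 (3.22). Gtpbp6 was at 4.74 and 6.65 FPKM in muscle and at 4.15, 3.78 and 0.531 in myoblasts, a difference of 2.16 (2.06). Akr1b3 thus rose in muscle, whereas Gtpbp6 fell in myoblasts. Aldh1a3, a further retinoic acid enzyme, was at 29.3, 19.1 and 11.9 FPKM in own-litter wild-type, other wild-type and knockout myoblasts, and its difference was 1.52 (0.92), opposite in sign to that of Aldh1a2. Plac8 rose in muscle from 1.48 to 7.96 FPKM and differed by 1.52 (1.79). The plot of FPKM by column shows 10 of the genes described.

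**Figure D4:**
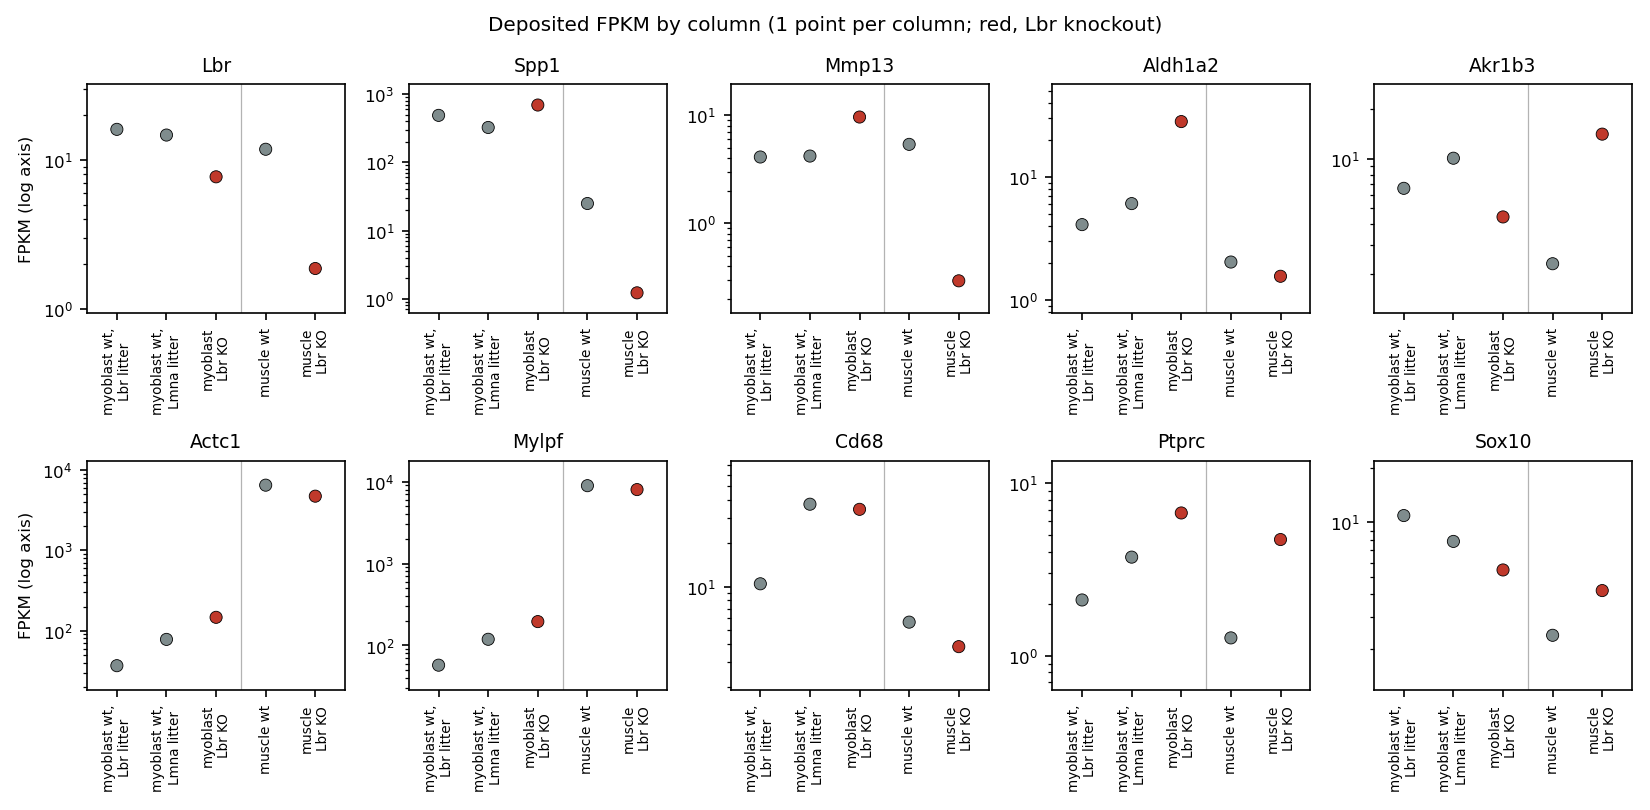
Deposited FPKM on log axes (y axis) of 10 genes in the 3 myoblast and 2 muscle columns, 1 point per column, with Lbr knockouts in red. The knockout muscle point lies lowest for Spp1 and Mmp13, and the knockout myoblasts exceed both wild types for Aldh1a2, Actc1, Mylpf and Ptprc but not for Cd68.

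The partners of the lamin B receptor differed little. Of 21 measured genes of the lamina and LEM-domain proteins, Lbr alone passed 2-fold and the median difference was 0.03. Lmna differed by 0.19 (0.54), Lmnb1 by 0.35 (0.19), Lmnb2 by -0.63 (-0.39) and Emd, emerin, by -0.11 (0.42). Of 15 genes of H3K9 methylation and heterochromatin protein 1, 1 was 2-fold lower, beside 1.57% of all genes (1.73% against the other wild type). It was Setdb1, a histone H3K9 methyltransferase, with a difference of -1.05 (-1.16). Setdb1 was at 9.41, 8.68 and 20.7 FPKM in own-litter wild-type, other wild-type and knockout myoblasts and 5.02 and 5.06 in muscle. The other 14 stayed within 2-fold.

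In late cholesterol synthesis 9 of 10 genes were measured, Lbr alone passed 2-fold and the median difference was 0.12. Tm7sf2, the other sterol C14 reductase, was under 1 FPKM in wild-type muscle and outside the comparison. It was listed at 0.214 in wild-type and 1.20 in knockout muscle, and at 1.49 in own-litter wild-type, 2.14 in other wild-type and 1.49 in knockout myoblasts. Of 13 mevalonate pathway genes 0 passed 2-fold, with a median of 0.21.

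Against the own-litter wild type, the median differences of the lists that follow stayed near the middle of all genes. Against the other wild type the median was 0.47 for cytosolic ribosomal proteins and 0.42 for immediate early genes. Both lay above the quartile range over all genes for that contrast, -0.22 to 0.36, and the remaining medians lay within it. In mitosis 0 of 25 measured genes passed 2-fold and in fibroblast and collagen genes 0 of 29, with 2 lower in each against the other wild type. Oxidative phosphorylation had 1 higher gene of 35, Cox6a2, a muscle subunit of cytochrome oxidase that fell in myoblasts from 3.11 to 0.563 FPKM, a difference of 1.35 (1.77). Glycolysis had 1 lower gene of 17, Pfkm, muscle phosphofructokinase, at -1.24 (-0.85). Cytosolic ribosomal proteins had 1 of 35, Rpl30, at -1.56 (0.61), and DNA replication 1 of 24, Rfc4, at -1.16 (-0.79). Of all genes 1.57% were 2-fold lower and 0.555% higher. The 2-fold lower immediate early genes were Atf3 and Fos, 2 of 20, both of which fell in muscle, with differences of -1.42 (-1.14) and -1.20 (-0.20). In that list 3 genes were higher and 2 lower against the other wild type, beside 1.75% and 1.73% of all genes. The plot of list medians shows that the muscle lists separate the tissues by their myoblast change, and that the macrophage and complement medians move most with the choice of wild type.

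**Figure D5:**
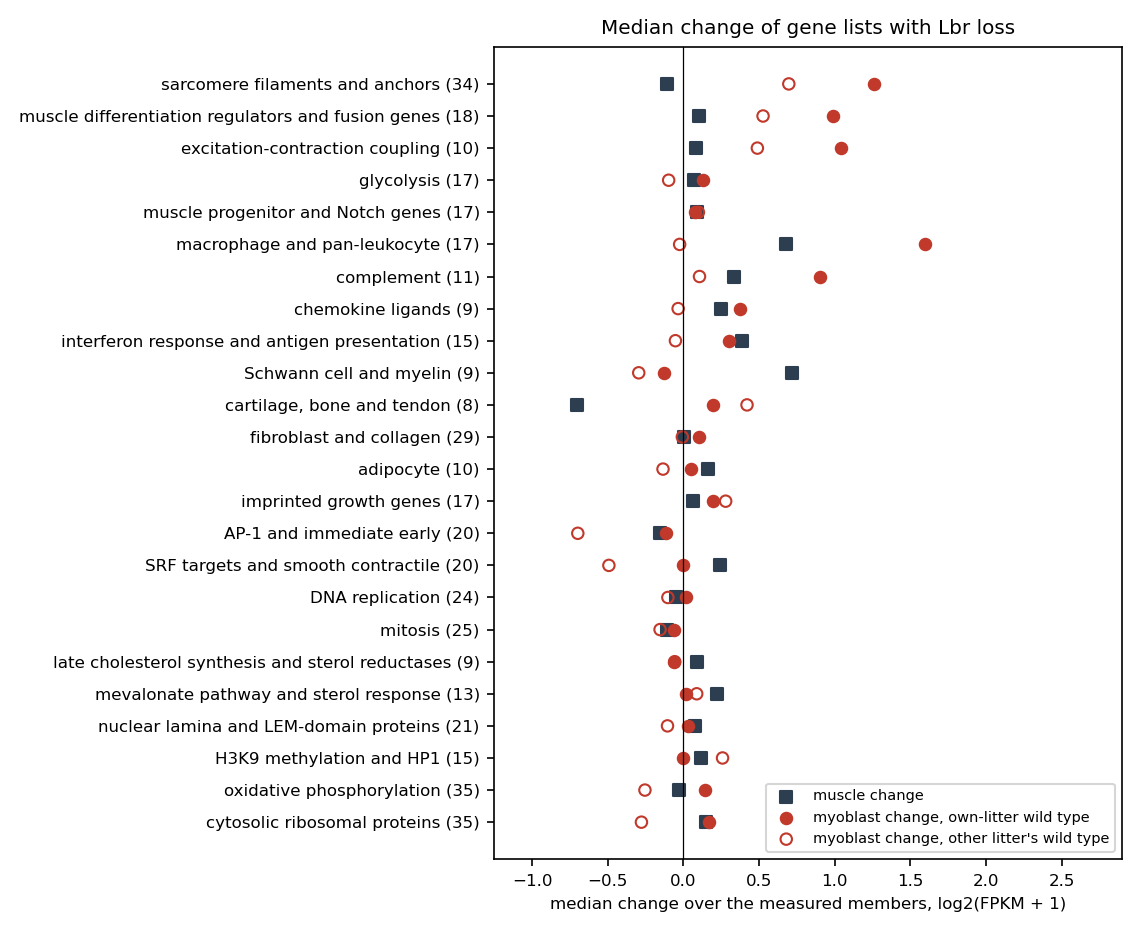
Median change with Lbr loss in log2(FPKM + 1) (x axis) for 24 gene lists, with the number of measured genes, in muscle (squares) and in myoblasts against own-litter (filled) and other (open) wild types. The sarcomere median is -0.11 in muscle and 1.26 or 0.70 in myoblasts, and the macrophage median in myoblasts is 1.60 or -0.03.

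Loss of Lmna is set beside these values, and its contrast shares the wild-type muscle column with the Lbr contrast. The same rule on the Lmna columns kept 10127 genes. The medians here were taken instead over the 34 sarcomere genes measured for Lbr. These include Tnnt3, listed at 0 in Lmna knockout myoblasts and counted as a change of -4.45, although a listed 0 can be a failed estimate. The sarcomere median was -0.12 in Lmna knockout muscle and -1.58 in Lmna knockout myoblasts, beside -0.11 and 1.26 for Lbr. Myh3 was at 1.25 and Mylpf at 18.7 FPKM in Lmna knockout myoblasts, beside 25.6 and 196 in Lbr knockout myoblasts. Against the wild type of its own litter, Setdb1 changed by 1.05 in Lmna knockout myoblasts, beside 1.06 with Lbr loss. Gtpbp6 changed by -1.57 to 0.610 FPKM, beside -1.75 to 0.531. Pfkm changed by 1.14 to 15.8 FPKM, beside 1.25 with Lbr loss. Cox6a2 changed by -2.22 to 0.177 FPKM, beside -1.39 to 0.563.

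With both wild-type myoblast columns taken as 1 group, a limma fit of the difference of effects had 1 residual degree of freedom, and its error comes only from those 2 libraries, the knockout and muscle columns being assumed to vary like them. The prior degrees of freedom were infinite, so each gene was given the error shared by genes of its expression level. The p-values therefore measure no spread of a single gene. With Benjamini-Hochberg adjustment over the 10096 genes, limma called 2 genes higher and 7 lower at 0.05, and 79 and 115 at an unadjusted p under 0.05. They were Akr1b3 and Gtpbp6, higher, and Mmp13, Spp1, Hist1h2ap, Aldh1a2, Sirt3, Ascc1 and Mir671, lower. Mir671, with a difference of -1.21 (-3.03), was listed at 0 in the other wild type and was named after its values were seen. In limma the difference was -3.34 for Mmp13 (adjusted p = 1.57e-08) and -4.34 for Spp1 (adjusted p = 2.10e-08). No sarcomere, macrophage or Schwann cell gene was among the 9.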

How the data were processed

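Total RNA of 12 samples was sequenced, 7 of them in the contrast. The deposited values are FPKM calculated by the authors, 1 column per group. The build is mm9 per the submitters' processing notes. What is not given in the sources used here is the aligner, quantification tool, annotation and pooling of samples. By name, 7 columns of values matched a group and 0 did not.

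On log2(FPKM + 1), with a pseudocount of 1, knockout minus wild type was taken for genes of at least 1 FPKM in both wild types, and 2-fold served as threshold. Members and the 34 gene lists were chosen with earlier results of these data known, and 9 of 749 list entries were not matched. Named genes were the 12 highest and 12 lowest differences, up to 8 per class of joint change, 7 set genes and up to 5 or 8 per list, without small RNAs, predicted genes or pseudogenes. The text prints a selection of them, and a few are not reported here. Acta1, Tnnc2, Lmod3, Des, Mybpc1, Tpm1, Tpm2, Capzb, Myom1, Cd53, Csf2rb, Cyth4, Laptm5, Selplg, Atp6v0c-ps2, Mir671, Bglap, Ibsp, Mef2c, C5ar1, Gnas and the genes named only as list members at 0 were chosen after their values were seen. Fragments per FPKM were estimated from the lengths of 3286 single-transcript genes in GENCODE M21, another build, taking the commonest value of FPKM times length as 1 fragment. Promoters came from RefSeq on GRCm38.p6. The interaction was fitted with limma 3.58.1 in R 4.3.3. The calculation was tested on simulated data. Alternatives were other pseudocounts, filters, scalings and wild types.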

Additional observations from a re-analysis of the deposited data

Results flagged for a closer look

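Mmp13 moved 2-fold in opposite directions in the tissues, falling in muscle and rising in myoblasts, with a difference of -3.35. Each direction rests on 1 column per group. For 8 other genes the difference of effects itself passed a limma interaction test with Benjamini-Hochberg adjustment, whose error comes from the 2 wild-type myoblast columns alone. The limma differences were -4.34 for Spp1, 2.95 for Akr1b3 (adjusted p = 3.49e-06), -2.61 for Hist1h2ap, -2.52 for Aldh1a2, -2.28 for Sirt3, -2.12 for Mir671, 2.11 for Gtpbp6 and -2.01 for Ascc1 (adjusted p = 0.0356). Muscle and knockout columns have no measured spread, and each gene was given the error shared by genes of its expression level.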

How the results depend on the processing

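No paired analysis was possible because each group has a single column that carries no replicate number, and for the same reason no replicate could be left out in turn. Genes 2-fold higher numbered 56, and 116 with a pseudocount of 0.1, 11 with a pseudocount of 5, 121 without a filter, 9 with a minimum of 5 FPKM, 101 with a mean of at least 1 FPKM, 177 with the other wild type and 2 by limma. Genes 2-fold lower numbered 159, and in the same order 253, 69, 264, 57, 240, 175 and 7. With the mean of both wild types they were 67 and 111. In myoblasts 158 genes rose, and 65 with a pseudocount of 5, 289 without a filter, 42 with the minimum of 5 FPKM, 272 with the mean filter and 91 with the mean of both wild types, while 11 fell, and 25 and 4 with pseudocounts of 0.1 and 5, 5 with the minimum of 5 FPKM and 43 with the other wild type. In muscle 40 rose, and 93 and 16 with those pseudocounts, 118 without a filter, 7 with the minimum and 99 with the mean filter, while 12 fell, and 51, 3, 21 and 5 in the same order and 20 with median centring. The sarcomere median of -1.46 was -0.98 with a pseudocount of 5 and -0.89 with the other wild type. The Schwann cell median of 0.99 was 1.18 with a pseudocount of 0.1, 1.08 with the other wild type, 1.06 with the mean of both, 0.59 with a pseudocount of 5 and 0.72 with the minimum of 5 FPKM. With the pseudocount of 5 its 4 called genes were under 2-fold, at 0.92 for Sox10, 0.95 for Ngfr, 0.56 for Gldn and 0.58 for Prx. The macrophage median of -0.95 was -1.02 with a pseudocount of 0.1, -1.05 with the minimum of 5 FPKM, -0.054 with the mean of both wild types and 0.65 with the other. The sign also turned with the other wild type for the complement median (0.52) and for C1qa (0.54), Pld4 (1.12), Fcer1g (0.46), Lyz1 (0.60), Csf1r (0.62), Lyz2 (0.78), Emr1 (0.58) and Tyrobp (1.15), each negative with its own litter. Quantile normalization moved no such count past 1.5 times. Low depth limits muscle values near 1 FPKM. Lower genes made up 74.0% of those called, 86.2% with a pseudocount of 5, 86.4% with the minimum of 5 FPKM, 62.4% with the mean of both wild types and 49.7% with the other wild type.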

Other observations

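Tpm1 and Gnas, which myoblasts express strongly, at 1960 and 899 FPKM in the own-litter wild type, are listed at 0 in Lbr knockout myoblasts. Both are listed at 0 in Lmna knockout myoblasts as well and stay out of every comparison here. A listed 0 of genes at such levels can be a failed estimate and is not read as a fall.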
